A study of Mus musculus with 2 samples.

Results

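Matrix metalloproteinases are zinc-dependent enzymes that cut collagens, elastin, laminins and many cell-surface and secreted proteins, and most are made as inactive proenzymes. Tissue inhibitors of metalloproteinases (TIMPs) are small secreted proteins that block their active site. In the kidney the balance between both is known for its part in the turnover of basement membrane and interstitial matrix after injury. The genes described here are 5 metalloproteinases, Mmp2, Mmp7, Mmp9, Mmp12 and Mmp14, and 3 inhibitors, Timp1, Timp2 and Timp3. These 8 genes were taken by name from the 32285 genes in the count matrices, and each was found once.

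The data were 2 single-cell RNA-seq libraries of injured mouse kidney, made with a 10x Genomics 3' kit that counts unique molecular identifiers (UMIs). In both, 1 kidney had been made ischemic by clamping its renal artery and reperfused, the mice then received 4 tamoxifen injections, and tissue was taken on day 14 in batch 1. The control library carried the genotype Cre-, and the haplodeficient library carried Cdh5-CreERT2; Phd3f/+, in which a tamoxifen-inducible Cre driven by the promoter of the endothelial cadherin gene Cdh5 acts on 1 floxed copy of the oxygen-sensing prolyl hydroxylase gene Phd3 (Egln3). The labels do not give strain, age, the number of animals behind a library, or whether the control mice carried the floxed allele. With 1 library per genotype there was no replicate and no test between genotypes, and no p-value is given. Every interval below is an exact 95% interval that covers counting error only.

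The libraries held 134190236 (control) and 114668145 (haplodeficient) UMIs. After filters, 8737 and 9222 cells remained, with a median of 8796 and 5482.5 UMIs per cell, and 23 cell barcodes occurred in both. The control library had the higher median mitochondrial share in all 18 cell groups compared, from 1.37% to 23.0% against 0.396% to 7.42%. In endothelial-like cells Egln3 stood at 23.5 CPM (UMI counts scaled to the same total in every class; interval 17.8 to 30.3, 58 UMIs) in the control and 21.2 CPM (17.4 to 25.5, 111 UMIs) in the haplodeficient library, so these counts did not separate the libraries, and where the 3' reads lie relative to the floxed exon is not given. Cells fell into 37 clusters made without the 8 genes, of which 31 were joined into 19 named classes by marker genes and 6 stayed unnamed. Of these, 16 named classes and 2 unnamed clusters held at least 50 cells in each library and were compared. Proximal tubule-like cells made up 34.3% of the control but 3.61% of the haplodeficient cells, and macrophage-like cells 8.73% and 14.4%, so levels over all cells mix cell makeup with level per cell.

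The Mmp7 and Mmp12 genes lie near each other on chromosome 9, and the promoter windows below are shown because they were the only windows of the 8 genes with the motif described here. Each window runs from 250 bases before to 50 bases after a RefSeq transcript start (GRCm38.p6, plus strand), at chr9:7691840-7692139 for Mmp7 and chr9:7347124-7347423 for Mmp12. Capitals mark a match to TGANTCA, the core site of the AP-1 (Fos and Jun) factors, which reads the same on both strands.
Mmp7: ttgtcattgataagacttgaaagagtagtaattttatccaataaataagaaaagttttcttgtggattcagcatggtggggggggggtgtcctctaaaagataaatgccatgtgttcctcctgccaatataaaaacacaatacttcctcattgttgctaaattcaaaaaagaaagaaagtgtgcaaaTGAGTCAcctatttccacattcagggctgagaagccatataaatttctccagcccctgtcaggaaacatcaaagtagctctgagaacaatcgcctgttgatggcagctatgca
Mmp12: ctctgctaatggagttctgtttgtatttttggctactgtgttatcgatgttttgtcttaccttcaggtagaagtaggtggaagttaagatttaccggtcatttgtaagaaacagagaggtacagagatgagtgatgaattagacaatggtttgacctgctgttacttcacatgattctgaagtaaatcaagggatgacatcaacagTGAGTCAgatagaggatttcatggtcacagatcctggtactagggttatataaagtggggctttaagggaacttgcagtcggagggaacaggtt
The match began 63 bases before the Mmp7 start and 44 bases before this Mmp12 start. It was found in 2 of the 8 windows that 6 of the 8 genes have in the table, and in 7.81% of all 32851 windows of 300 bases. A match of letters is a description and not a binding site.

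The plot of levels by cell class shows how differently the 8 genes were distributed. Mmp9 was high in neutrophil-like cells, Mmp12 in macrophage-like and cDC2-like cells, Mmp2 and Timp1 in fibroblast-like cells, and Mmp7 in a small set of tubule cells. Mmp14, Timp2 and Timp3 were counted in most classes. A level is the gene's share of the UMIs of the class, written as CPM. Levels of different genes are not ranked against each other, since how well a 3' kit captures a gene varies from gene to gene.

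**Figure D1:**
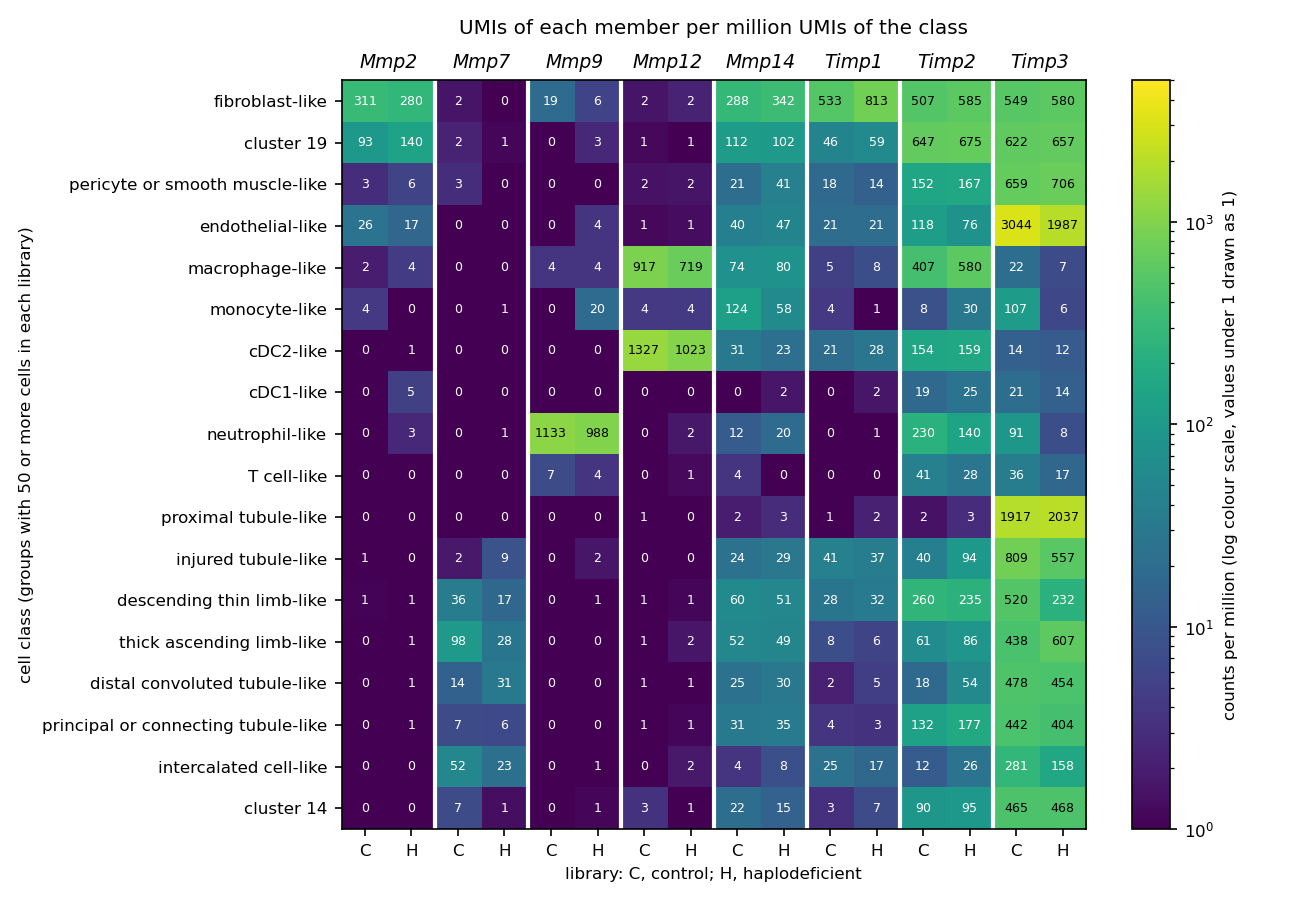
Level of each gene in CPM (colour, log scale; the number is printed in each cell) in 18 cell groups (rows) and both libraries (columns; C is control, H is haplodeficient). Mmp9 stands out in neutrophil-like cells at 1133 and 988 CPM, Mmp12 in cDC2-like and macrophage-like cells, and Timp3 in endothelial-like and proximal tubule-like cells.

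The gelatinases Mmp2 and Mmp9, which cut denatured collagen and the type IV collagen of basement membranes, occupied separate cell types. Mmp2 (chr8:92827291-92853420 in GRCm38, plus strand) stood at 311 CPM (interval 269 to 358, 192 UMIs) in control and 280 CPM (246 to 317, 248 UMIs) in haplodeficient fibroblast-like cells, which carried Col1a1, Col3a1, Dcn and Pdgfra. These intervals overlapped. Cluster 19, led by Tnc and also holding Wt1, Foxd1 and Cdh11, stayed unnamed. Its closest class was parietal epithelium, with 4 of 5 markers, but its leading genes held more markers of podocytes. In cluster 19 Mmp2 was 92.6 CPM (73.2 to 116) in control and 140 CPM (128 to 153) in haplodeficient cells, a ratio of 1.51 (1.19 to 1.94). Endothelial-like cells came next at 25.9 CPM (19.9 to 33.0) and 16.8 CPM (13.5 to 20.7), and the 3 groups did not overlap each other within either library. Among endothelial clusters the Stmn2-led one was highest, with 90.3 CPM from 47 of the 64 endothelial UMIs in control and 87.4 CPM from 49 of 88 in haplodeficient cells. In the other compared groups Mmp2 was at most 5.64 CPM. Over all cells Mmp2 was 3.72 CPM in control and 10.2 CPM in haplodeficient cells, while cluster 19 held 0.927% of control and 2.98% of haplodeficient cells.

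Mmp9 (chr2:164940780-164955850, plus strand) was a neutrophil transcript in these libraries. Neutrophil-like cells held 187 of 230 control UMIs (81.3%) and 1158 of 1307 haplodeficient UMIs (88.6%). The level was 1133 CPM (976 to 1307) in 103 control cells and 988 CPM (932 to 1047) in 615 haplodeficient cells, a ratio of 0.873 (0.747 to 1.02), so no difference per neutrophil was detectable at this depth. With each cell thinned to 1000 UMIs, 59.4% (48.9 to 69.3) of 96 control and 50.6% (46.4 to 54.8) of 569 haplodeficient neutrophil-like cells held an Mmp9 UMI, while unthinned shares were 65.0% and 64.1%. T cell-like cells, taken for comparison, gave 0 of 173 control cells and 0.196% of 1019 haplodeficient cells. The control value of 0 allows a share of up to 1.73% by the limit of 3 counts (exact upper bound 2.11%). Unthinned shares of T cell-like cells were 2.26% and 0.963%. Monocyte-like cells held 0 Mmp9 UMIs in 54 control cells and 37 in 378 haplodeficient cells (19.8 CPM, 13.9 to 27.2), and the control interval reached 15.2 CPM. Over all cells Mmp9 was 2.14 CPM in control and 13.9 CPM in haplodeficient cells, a ratio of 6.51 (5.66 to 7.53). Applying the control level of each class to the haplodeficient cell makeup gave 15.1 CPM, which is a log2 difference from control of 1.49 by makeup alone against 1.41 measured.

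Mmp7, known as matrilysin, is a small secreted metalloproteinase of epithelia and a known marker of tubular injury and fibrosis in kidney. Its gene is at chr9:7692090-7699585 (plus strand). Thick ascending limb-like cells held 71.2% of its control UMIs and 49.2% of its haplodeficient UMIs. There it stood at 98.3 CPM (93.5 to 103, 1567 UMIs in 1034 cells) in control and 27.7 CPM (25.5 to 30.0, 580 UMIs in 1162 cells) in haplodeficient cells, a log2 difference of -1.66 on the scale of CPM plus 5. This passed the size rule, which asks for a 2-fold difference, separate intervals, 30 or more UMIs and a mean level of 50 CPM or more; 0.921% of the 3585 genes of that class were lower by the same rule. Almost all of it came from the Psca-led cluster, at 238 CPM in control and 83.2 CPM in haplodeficient cells (ratio 0.35, 0.317 to 0.385), and the Egf-led cluster held 6 and 4 UMIs.

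The Mmp7 counts sat in few cells. Of the 1567 control UMIs, 232 came from 1 cell and 7 cells held 50%, and of the 580 haplodeficient UMIs 187 came from 1 cell and 4 cells held 50%. Counting intervals are too narrow for such a gene, because UMIs of 1 cell are not independent. Without the top cell of each library the log2 difference was -1.91. Mmp7 was counted in 87 of 1034 control cells and 50 of 1162 haplodeficient cells (8.41% and 4.30%). After thinning to 1000 UMIs these shares were 2.85% (1.90 to 4.10) and 1.45% (0.83 to 2.34), and these intervals overlapped. When each cell was named on its own marker counts, the difference in cells named thick ascending limb was -0.13, so the call depends on how the Mmp7 cells are grouped.

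The cells richest in Mmp7 carried little of the defining marker of the class. In the 29 control and 14 haplodeficient cells with 10 or more Mmp7 UMIs, Slc12a1, the sodium-potassium-chloride cotransporter of the thick ascending limb, stood at 106 and 543 CPM, against 6413 and 5871 CPM in the Egf-led cluster. The remaining Psca-led cells lay between, at 1786 and 2206 CPM. Cp (ceruloplasmin) was 553 and 568 CPM in the Mmp7-rich cells and 12.4 and 16.02 CPM in the Egf-led cluster, Krt19 was 603 and 482 CPM against 73.1 and 107 CPM, and Olfm4 was 432 and 342 CPM against 44.7 and 40.1 CPM. The uroplakins Upk1b, Upk2 and Upk3a, which are among the urothelium markers used here, were at 0 UMIs in the Mmp7-rich cells of both libraries. Krt19, which was higher in these cells than in the Egf-led cluster, is on the same marker list. Cp is on the list of parietal epithelium markers used here. The whole Psca-led cluster held 5 of 8 thick ascending limb markers, and 1 of that list, Cldn19, was among its leading genes. For the Mmp7-rich cells, Upk1a and Krt5 of the urothelium list and the parietal epithelium markers other than Cp are not given. The thick ascending limb markers other than Slc12a1 are also not given for the Mmp7-rich cells. These cells, and the genes named for them, were picked after their values had been seen, and they receive no cell type name here.

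Outside that class Mmp7 was again concentrated, to a degree that differed between classes. In intercalated cell-like cells it was 52.0 CPM in control and 23.1 CPM in haplodeficient cells, and 1 cell held 83.0% and 92.3% of those UMIs. In descending thin limb-like cells it was 35.6 CPM (30.8 to 40.9) in 20 control cells with a UMI and 17.1 CPM (14.5 to 20.0) in 27 haplodeficient cells, the top cell held 32.0% and 34.2%, and the log2 difference of -0.88 was -0.85 without the top cells. Distal convoluted tubule-like cells went the other way, with 14.0 CPM (11.5 to 16.8) in control and 30.9 CPM (26.6 to 35.7) in haplodeficient cells, but 1 haplodeficient cell held 57.0% of the UMIs and the log2 difference went from 0.92 to 0.19 without the top cells. In injured tubule-like cells, which carry the injury marker Havcr1, Mmp7 was 1.79 CPM and 8.73 CPM, with 64.9% of the haplodeficient UMIs in 1 cell. With cells named one by one the log2 differences of these last 3 classes changed sign, to 0.26 in descending thin limb, -0.84 in distal convoluted tubule and -1.11 in injured tubule cells. Over the whole data set, 49 control cells with 10 or more Mmp7 UMIs held 84.8% of all 2202 UMIs, and 25 such haplodeficient cells held 77.4% of 1179.

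**Figure D2:**
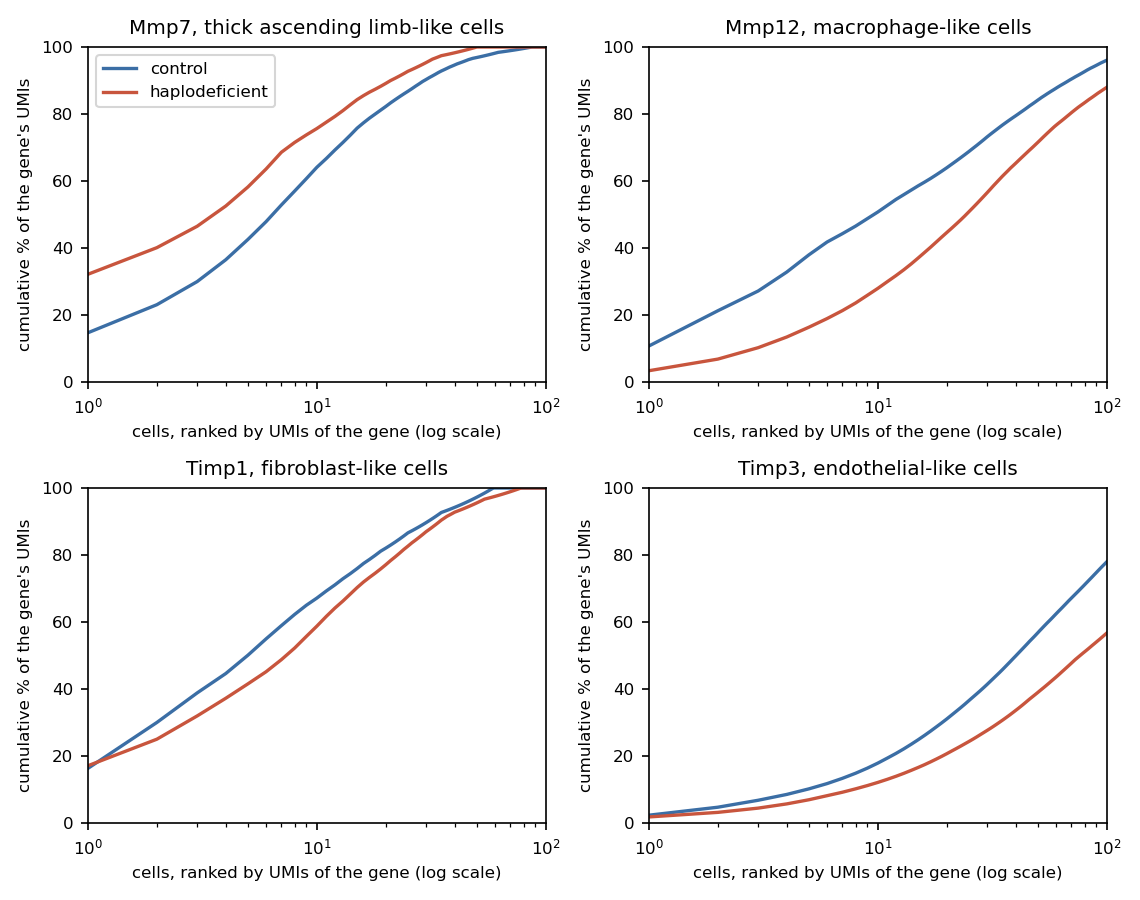
Cumulative share of a gene's UMIs (vertical axis, %) against cells ranked by their UMIs of that gene (horizontal axis, log scale, first 100 cells) in 1 class for each of 4 genes, with 1 line per library. Mmp7 and Timp1 rise within the first few cells, 1 cell holding 14.8% and 32.2% of Mmp7 UMIs, while Timp3 in endothelial-like cells was spread over many cells.

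Mmp12, the macrophage elastase, cuts elastin and many other matrix proteins. Its gene is at chr9:7344381-7369499 (plus strand). It was high in cDC2-like cells, named for markers of type 2 conventional dendritic cells, at 1327 CPM (1259 to 1397) in control and 1023 CPM (977 to 1071) in haplodeficient cells. Macrophage-like cells followed at 917 CPM (889 to 945) and 719 CPM (702 to 737), and the order of the 2 classes was the same in both libraries, with no overlap. Both classes were lower in the haplodeficient library, with ratios of 0.771 (0.72 to 0.827) and 0.785 (0.755 to 0.816), neither past the size rule. With cells named one by one, Mmp12 in cDC2 cells passed the rule at a log2 difference of -1.50 in place of -0.37, and macrophages stood at -0.21. In the other compared groups Mmp12 was at most 4.27 CPM.

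Within macrophage-like cells the Gpnmb-led cluster carried most Mmp12, with 1889 CPM (1827 to 1953) in 155 control and 1109 CPM (1081 to 1138) in 411 haplodeficient cells, a ratio of 0.587 (0.563 to 0.613). The Ccl12-led cluster had 247 CPM and 204 CPM, a ratio of 0.825 (0.742 to 0.917), and the small Aif1-led cluster 246 and 211 CPM, which overlapped. At 1000 UMIs per cell, 37.4% (29.8 to 45.5) of control and 25.3% (21.2 to 29.8) of haplodeficient Gpnmb-led cells held an Mmp12 UMI, and these intervals overlapped slightly. T cell-like cells gave 0 of 173 and 0 of 1019, with exact upper bounds of 2.11% and 0.361%. The macrophage-like class as a whole gave 14.5% and 14.1%, and the Gpnmb-led cluster was 155 of 763 control but 411 of 1324 haplodeficient macrophage-like cells. A single control cell held 450 Mmp12 UMIs, 10.9% of the class, and without the top cells the class difference moved from -0.35 to -0.23 on the log2 scale, while with its clusters weighted alike it was -0.69. Over all cells the sign was the opposite: 56.1 CPM in control and 97.8 CPM in haplodeficient cells (log2 0.75), which became -0.33 with classes weighted alike in both libraries.

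Mmp14, a membrane-bound metalloproteinase that activates the Mmp2 proenzyme on the cell surface with Timp2 as adaptor, was broad. Its gene is at chr14:54431612-54445364 (plus strand). Fibroblast-like cells were highest, at 288 CPM (248 to 334) in control and 342 CPM (304 to 382) in haplodeficient cells, and these intervals overlapped. Cluster 19 stood at 112 CPM (90.2 to 137) and 101.5 CPM (91.3 to 113), and macrophage-like cells at 73.9 CPM (66.2 to 82.3) and 79.9 CPM (74.3 to 85.9). Monocyte-like cells, led by Adgre4, passed the size rule: 124 CPM (83.4 to 177, 30 UMIs in 54 cells) in control and 58.2 CPM (47.8 to 70.2, 109 UMIs in 378 cells) in haplodeficient cells, log2 -1.03. There 1.83% of 3272 genes were lower by the rule. Of 15 genes that respond to tissue dissociation, 12 had enough counts in this class, 7 of them above 0, and 2 were called higher (Fos and Atf3), with a median log2 difference of 0.21; their part in the result was not tested. The call was lost at -0.96 without the top cell of each library and at -0.80 with likely doublets kept. In the tubule, descending thin limb-like cells held 59.7 and 51.2 CPM and thick ascending limb-like cells 51.7 and 48.9 CPM, with overlapping intervals in each class.

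The 3 genes that form the Mmp2-activating complex, Mmp2, Mmp14 and Timp2, were all high in fibroblast-like cells, but joint counts were too sparse to read. At 1000 UMIs per cell, 3 of 113 control and 5 of 116 haplodeficient fibroblast-like cells held UMIs of all 3, or 2.65% (0.551 to 7.56) and 4.31% (1.41 to 9.77). The product of the single-gene shares was 2.18% and 3.32%, inside these intervals.

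**Figure D3:**
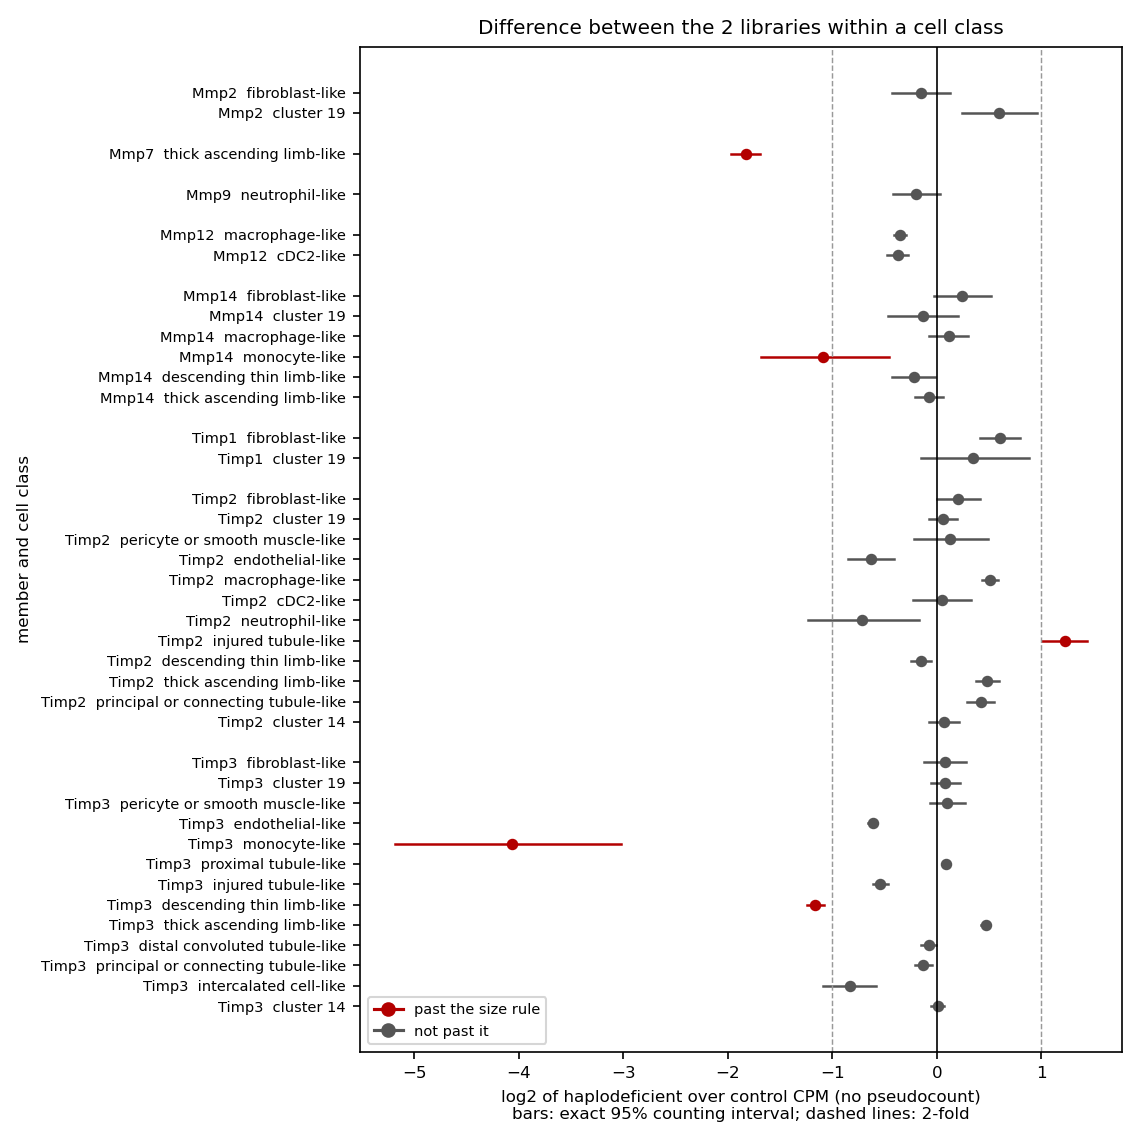
Log2 of the haplodeficient over the control level (horizontal axis; points, with exact 95% counting intervals as bars) for the 39 gene and class pairs with enough counts. The 5 pairs past the size rule are red: Mmp7 in thick ascending limb-like, Mmp14 and Timp3 in monocyte-like, Timp2 in injured tubule-like and Timp3 in descending thin limb-like cells.

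Timp1, the inhibitor most known for induction in injured and fibrotic tissue, had its highest level in fibroblast-like cells here. Its gene (chrX:20870166-20874735, plus strand) lies inside Syn1, which runs on the other strand, with no shared exon. It stood at 533 CPM (477 to 594, 329 UMIs) in control and 813 CPM (754 to 874, 721 UMIs) in haplodeficient fibroblast-like cells, a ratio of 1.52 (1.34 to 1.74) that stayed under the 2-fold of the size rule. With likely doublets kept the log2 difference was 0.07 in place of 0.60. Timp1 was counted in 59 of 113 control and 78 of 116 haplodeficient cells, but its UMIs were concentrated: 1 cell held 16.4% and 17.2% of them, and 50% came from 5 and 8 cells. At 1000 UMIs per cell, 23.9% (16.4 to 32.8) of control and 33.6% (25.1 to 43.0) of haplodeficient cells held a Timp1 UMI, and these intervals overlapped. Cluster 19 followed at 46.3 and 58.9 CPM, then injured tubule-like cells at 40.6 CPM (36.3 to 45.3) and 37.3 CPM (31.7 to 43.5). In control these 2 neighbours overlapped. Injured tubule-like cells held 24.3% of the control Timp1 UMIs but 7.87% of the haplodeficient ones, and made up 5.83% and 3.14% of the cells. Fibroblast-like cells held 329 of all 1310 control Timp1 UMIs and 721 of all 2007 haplodeficient ones, so most Timp1 UMIs lay in other cells.

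Timp2, which both inhibits metalloproteinases and serves in Mmp2 activation, was spread over cluster 19, fibroblast-like cells, myeloid cells and several tubular classes. Its gene is at chr11:118301069-118355740 on the minus strand. Cluster 19 was highest at 647 CPM (594 to 704) in control and 675 CPM (648 to 703) in haplodeficient cells, followed by fibroblast-like cells at 507 CPM (452 to 566) and 585 CPM (536 to 638). Both pairs overlapped between libraries. Macrophage-like cells had 407 CPM (388 to 426) and 580 CPM (564 to 595), a ratio of 1.43 (1.35 to 1.5), or a log2 difference of 0.51 that was 0.25 with clusters weighted alike. By cluster, the Gpnmb-led cells had 671 and 835 CPM (ratio 1.24, 1.17 to 1.33), and the Ccl12-led cells 222 and 234 CPM (1.06, 0.952 to 1.18). Thus in the Gpnmb-led cluster Timp2 was higher and Mmp12 lower in the haplodeficient library.

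In the tubule Timp2 was highest in descending thin limb-like cells, at 260 CPM (247 to 274) and 235 CPM (225 to 245). The level passed the size rule in injured tubule-like cells, with 40.1 CPM (35.8 to 44.8, 314 UMIs) in control and 93.6 CPM (84.6 to 103, 397 UMIs) in haplodeficient cells, log2 1.13, where 0.524% of 3438 genes were higher by the rule. Median mitochondrial shares of the class were 6.81% and 4.02%, and their part in the result was not tested. It was counted in 135 of 509 control and 129 of 290 haplodeficient cells of that class, and the difference was 1.12 without the top cells. The call was lost with likely doublets kept (0.91) and with cells named one by one (0.74). Distal convoluted tubule-like cells had 18.4 CPM (15.6 to 21.6) and 54.5 CPM (48.7 to 60.7), under the 50 CPM mean that the rule asks for. Thick ascending limb-like cells had 61.3 CPM (57.5 to 65.2) and 85.7 CPM (81.8 to 89.8), and principal or connecting tubule-like cells 132 CPM (123 to 142) and 177 CPM (167 to 187), both without overlap. Free RNA of Timp2 was also 46.2 CPM in control and 181 CPM in haplodeficient barcodes of 1 to 100 UMIs. The estimated free-RNA part of Timp2 was 6.14% and 6.32% of the injured tubule-like level and 19.5% and 20.6% of the distal convoluted tubule-like level. Endothelial-like cells went the other way, with 118 CPM (105 to 132) in control and 76.3 CPM (69.0 to 84.2) in haplodeficient cells. Within each of its 4 clusters, however, the Timp2 intervals of the libraries overlapped, and the Stmn2-led cluster, highest at 271 and 212 CPM, was 57 of 366 control but 76 of 791 haplodeficient cells. With these clusters weighted alike the log2 difference was -0.27 in place of -0.60, and with likely doublets kept -0.29.

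Timp3, the inhibitor that binds to the extracellular matrix and also blocks ADAM proteases, was counted in stroma, endothelium and all tubular classes. Its gene (chr10:86300372-86349506, plus strand) lies inside Syn3 on the opposite strand, and annotated exons of both overlap. The matrices held 12.9 Timp3 UMIs per Syn3 UMI in control and 10.6 in haplodeficient cells. Whether counting used strand is not given in the sources used here, so Timp3 and Syn3 counts cannot be fully told apart. Endothelial-like cells, which carried Pecam1, Cdh5, Kdr and Emcn, had 3044 CPM in control (7527 UMIs) and 1987 CPM in haplodeficient cells (10412 UMIs), a ratio of 0.653 (0.634 to 0.673) that did not reach 2-fold. All 4 endothelial clusters were lower: the Stmn2-led cluster had 4689 and 3224 CPM, the Plvap-led 2681 and 1904 CPM, the Ehd3-led 2606 and 2096 CPM, and the Cldn5-led 2510.0 and 1349 CPM. Their ratios ran from 0.538 to 0.804, so none reached 2-fold. The 4 clusters share the same 2 libraries, and how many other genes were lower in all 4 was not counted. At 1000 UMIs per cell, 268 of 339 control cells held a Timp3 UMI, which is 79.1% (74.3 to 83.3), and so did 540 of 758 haplodeficient cells, which is 71.2% (67.9 to 74.4). These intervals overlapped slightly, and unthinned shares were 91.5% and 89.5%. Macrophage-like cells gave 1.93% and 0.25% at the same depth. Median mitochondrial shares of this class were 3.52% and 2.28%, and their part in the result was not tested.

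**Figure D4:**
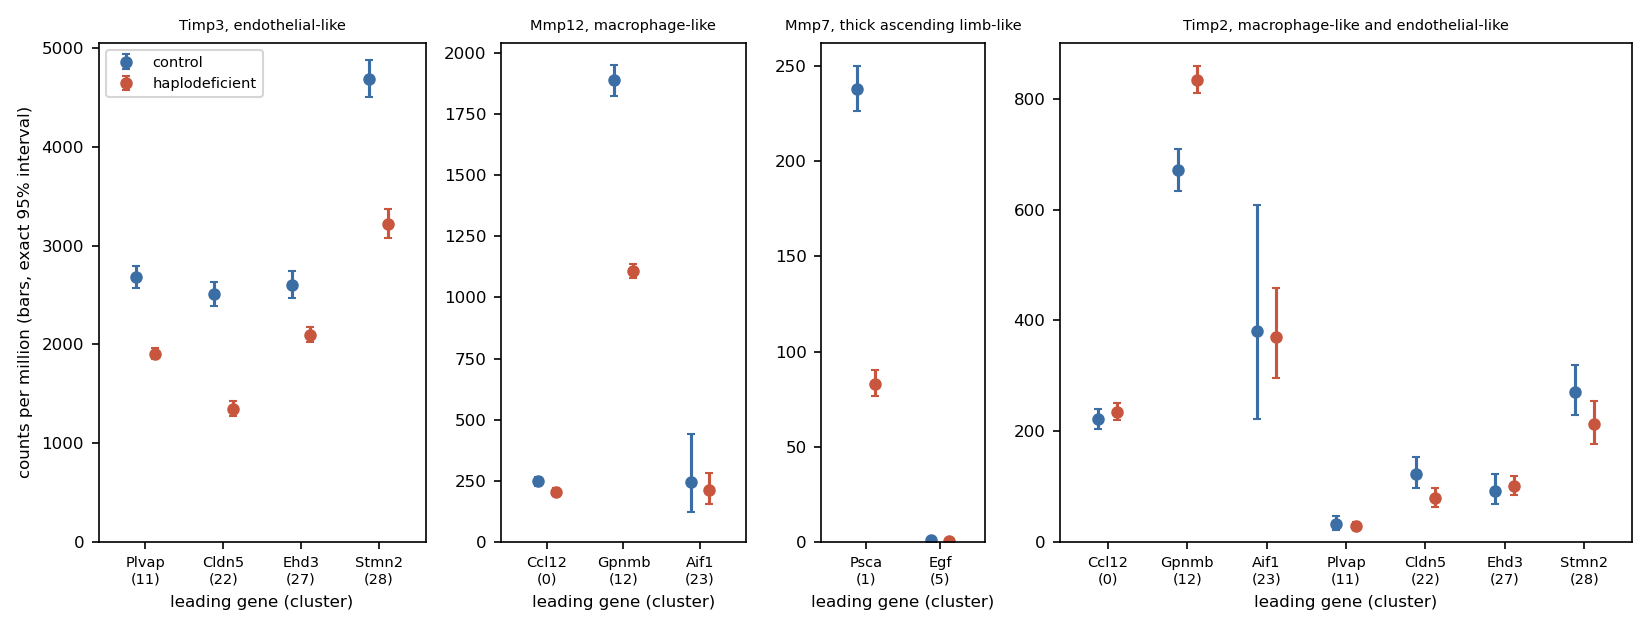
Level (vertical axis, CPM; bars, exact 95% counting intervals) of Timp3, Mmp12, Mmp7 and Timp2 in the clusters that make up 1 or 2 classes, each cluster named by its leading gene and number, in control (blue) and haplodeficient (red) cells. Timp3 is lower in the haplodeficient library in all 4 endothelial clusters, and Mmp12 is lower but Timp2 higher in the Gpnmb-led cluster. None of these differences reached 2-fold.

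Proximal tubule-like cells held 64.6% of all control Timp3 UMIs and 15.9% of the haplodeficient ones, with 1917 CPM (1903 to 1931) and 2037 CPM (1994 to 2081) within the class. In control the endothelial level was above the proximal tubule level, while in the haplodeficient library the intervals of both overlapped. Under median-of-ratios scaling the typical gene of proximal tubule-like cells shifted by 0.21 on the log2 scale, more than the Timp3 difference of 0.09, so no direction is given there. Descending thin limb-like cells passed the size rule, with 520 CPM (502 to 540) in control and 232 CPM (223 to 243) in haplodeficient cells, log2 -1.15, where 0.791% of 3792 genes were lower by the rule. Median mitochondrial shares there were 4.32% and 2.72%. Several markers of the class were lower too: Aqp1 at 211 and 78.4 CPM, Slc14a2 at 567 and 329 CPM, Fst at 279 and 163 CPM, and Epha7 at 145 and 80.8 CPM. Bst1 was 278 and 280 CPM, Cryab 2574 and 2297 CPM, and Tspan8 513 and 658 CPM. The part of these marker differences in the Timp3 result was not tested. The call held in each of the 11 alternatives run, with log2 values from -1.21 to -1.12. Weighting clusters alike and dropping the CPM minimum could not change it, because the class is 1 cluster and the pair already had enough counts. Syn3 was lower there too, at 84.3 and 55.6 CPM. Injured tubule-like cells had 809 and 557 CPM and intercalated cell-like cells 281 and 158 CPM, whereas thick ascending limb-like cells had 438 CPM (428 to 449) and 607 CPM (596 to 617). With likely doublets kept the log2 differences were -0.16 in place of -0.54 in injured tubule-like and 0.11 in place of 0.46 in thick ascending limb-like cells, and with cells named one by one that of intercalated cells changed sign, from -0.81 to 0.30. Among thick ascending limb-like cells the Egf-led cluster had 455 and 698 CPM and the Psca-led cluster was 414 and 421 CPM. Fibroblast-like cells, pericyte or smooth muscle-like cells and cluster 19 lay between 549 and 706 CPM with overlapping intervals between libraries.

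In leukocytes Timp3 was low, and the part that free RNA could give differed between classes and libraries. Free barcodes held 686 CPM of Timp3 in control and 315 CPM in haplodeficient material. Monocyte-like cells passed the size rule with 107 CPM (70.0 to 157, 26 UMIs) and 6.41 CPM (3.31 to 11.2, 12 UMIs), and 15 of the 26 control UMIs came from 1 cell, and the estimated free-RNA part was 37.4% in control and all of the level in haplodeficient cells. The call was lost without the top cell of each library, with free RNA subtracted and at a mitochondrial limit of 25%, and with likely doublets kept the log2 difference was -1.10 in place of -3.30. In macrophage-like cells, at 21.9 and 6.98 CPM, the estimated free-RNA part was the whole level in both libraries.

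Of 144 pairs of a member and a compared group, 39 had enough counts for the size rule. Of these 39, 1 was higher and 4 were lower in the haplodeficient library, 20 lay above and 19 below 0, and the median log2 difference was 0.0097. Over all genes, 1.99% of 60498 pairs of a gene and a group passed the rule, 0.81% higher and 1.18% lower, with a median of 0.02. The member pairs share libraries and cells and are not independent of each other.

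Over all cells, the haplodeficient makeup with control class levels gave a difference of the measured sign for 7 of the 8 genes. No such count was made over all genes, so it is not read as a trait of these 8. Proximal tubule-like cells alone made up 34.3% of control and 3.61% of haplodeficient cells. Timp3 was 1039 CPM in control and 563 CPM in haplodeficient cells, log2 -0.88, and makeup alone gave -0.70. Timp2 was 77.3 and 181 CPM, log2 1.17 against 0.92 from makeup alone, and Mmp14 was 27.4 and 45.8 CPM, 0.65 against 0.67. Timp1 was 12.2 and 21.4 CPM, 0.62 against 0.40. Mmp7 was the exception in sign, at 20.5 and 12.6 CPM, log2 -0.54, where the makeup alone gave 0.42. With classes weighted alike in both libraries, Timp3 was at -0.07, Timp2 at 0.28, Timp1 at 0.20 and Mmp7 at -0.85. Median-of-ratios scaling moved all genes by 0.14 on this scale and turned none of the 8 directions.

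**Figure D5:**
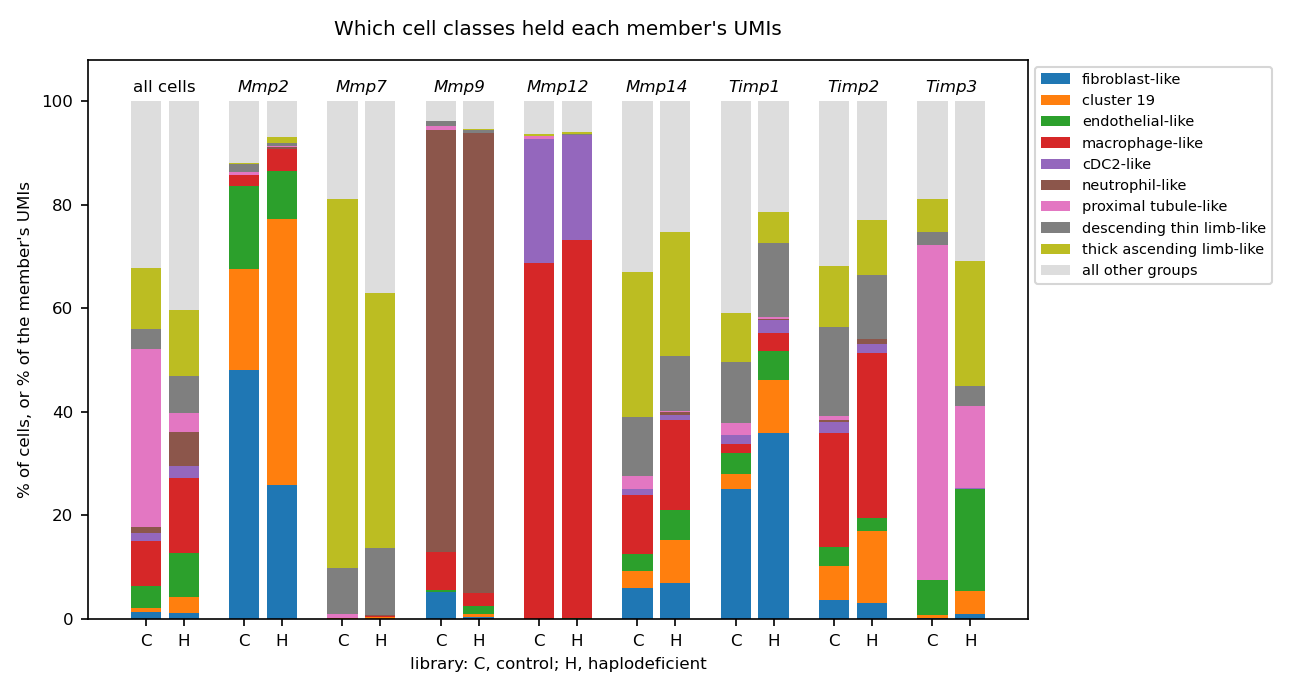
Stacked bars of the share of cells (left pair) and of each gene's UMIs (% of the total of that gene, other pairs) by cell class in the control (C) and haplodeficient (H) library. Proximal tubule-like cells held 64.6% of control and 15.9% of haplodeficient Timp3 UMIs, while neutrophil-like cells held most Mmp9 UMIs in both libraries.

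Other genes of the pathway were counted by the same size rule, which 1.99% of all 60498 pairs of a gene and a group passed. Among 16 other metalloproteinases and Timp4, 3 genes had enough counts in any group, and 1 of 4 pairs was called: Mmp11 (stromelysin-3) in fibroblast-like cells, lower at 30.4 CPM against 87.5 CPM in control, where 1.85% of genes were lower. Mmp23, a fibroblast-like transcript at 117 CPM in both libraries, Mmp15, at most 40.5 CPM in a group's highest value, and Mmp11 led that list by level. Among 13 ADAM and ADAMTS proteases, relatives that include the Timp3 targets Adam10 and Adam17, 1 of 73 pairs was lower and none higher, with a median of -0.18 and 54 of 73 pairs below 0. The called pair was Adam12 in T cell-like cells, 41.8 CPM against 116 CPM in control, where 1.57% of genes were lower. Adamts1, Adam10 and Adam17 had the highest levels in that list, Adamts1 with 769 and 680 CPM in cluster 19.

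Among 13 activators, docking partners and other inhibitors, 2 of 82 pairs were higher and 2 lower, with a median of -0.0097. Thbs2 (thrombospondin-2), which binds Mmp2 and helps its clearance, was higher in fibroblast-like cells at 134 CPM against 61.6 CPM in control, where 0.879% of genes were higher. Thbs1 was higher in monocyte-like cells at 240 CPM against 82.4 CPM (1.8% of genes higher), and lower in cDC2-like cells at 45.0 CPM against 204 CPM (1.27% of genes lower). Bsg, Cd44 and Plaur had the highest levels of this list, with Cd44 at 1418 and 1672 CPM in monocyte-like cells, and no pair of these 3 genes was called.

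The genes whose levels ran most like each member were found by Pearson's r of log2(CPM + 5) over 36 points, which are 18 groups in 2 libraries and share depth and composition within a library. These r are descriptions, chosen as the highest of 7570 genes. Mmp2 ran with Nav3 (0.94), Mfap2, Svep1, Col6a1 and Tcf21, and Timp1 with Kdelr3 (0.88), Efemp2, Lgi2, Nnmt and Ccdc80. Mmp9 ran with Cxcr2 (0.96), Retnlg, Il1f9, Stfa2l1 and Entpd3, and Mmp12 with Fcrls (0.98), Mrc1, Clec4b1, St18 and Mgl2. Mmp7 ran with Lrrc31 (0.85), Pantr1, Rassf6, Bag4 and Pou3f3. Timp3 ran with Syn3 (0.97), Ghr, Dennd5b, Ptprg and Tns1, and the overlap of Timp3 and Syn3 exons bears on the first of these. The likeness was weaker for the broad genes, at 0.82 for Mmp14 with Itgb5 and 0.78 for Timp2 with Fblim1. Among the members the closest pair was Mmp2 and Timp1 (0.78), followed by Mmp14 and Timp2 (0.69).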

How the data were processed

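The authors deposited raw UMI counts per gene and barcode for each of 2 libraries, unfiltered (1342632 and 1430043 barcodes). Per the submitters' processing notes Cell Ranger and mm10 were used; per the file headers the matrices come from Cell Ranger major version 4. Gene positions were taken from GENCODE M21 (GRCm38), which held 99.6% of the gene identifiers. A barcode was kept from 500 UMIs and 200 genes upward unless over 50% of its UMIs were mitochondrial. The barcodes with the highest Scrublet scores (scanpy 1.11.5) were removed as likely doublets, 0.8% per 1000 barcodes (715 and 804). Both libraries were clustered together (2000 variable genes, 30 principal components, 15 neighbours, Leiden resolution 1) without the 8 members and the other pathway genes. A cluster was named "X-like" from at least 3 markers found in 10% of its cells at 2-fold; clusters with mixed or contrary markers stayed unnamed.

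Counts were summed per class and library and given as CPM with exact Poisson intervals; ratio intervals are exact conditional binomial, and shares of cells exact Clopper-Pearson. Free RNA was read from barcodes of 1 to 100 UMIs and scaled in each class by other classes' markers. A gene passed the size rule at a log2 difference of at least 1 (pseudocount 5 CPM), with separate intervals, 30 or more UMIs and a mean level of 50 CPM or more. All 8 members were named; other pathway genes were named when they passed the rule or were among the 3 highest of their list. The values of 1 such gene are not reported here. Members and lists were chosen with earlier results of these data known. UMIs of 1 cell are not independent, so intervals are too narrow. Alternatives are given at the end.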

Additional observations from a re-analysis of the deposited data

How the results depend on the processing

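Limits: each genotype is 1 library, so differences between genotypes, animals and library preparation cannot be told apart, and class names rest on rebuilt clusters. Depth limits rare classes and sparse genes most.

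The number of members called was 1 higher and 4 lower. It was 0 higher with likely doublets kept and with cells named one by one, 2 higher at Leiden resolution 2 and 3 higher without the CPM minimum, where pairs of lower level enter. With cells named one by one 5 pairs were lower, of which Timp3 in descending thin limb cells alone was among the 4; the others were Mmp12 in cDC1, cDC2 and unnamed cells and Mmp7 in injured tubule cells, and the cause was not tested. Without the cell holding most UMIs of the member, chosen after seeing the data, 2 were lower. The other alternatives kept both counts within 1.5 times. Mmp7 in thick ascending limb-like cells lost its call only with cells named one by one.

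Log2 differences over all cells moved most with classes weighted alike: Mmp2 0.088, Mmp7 -0.85, Mmp9 -0.053, Mmp12 -0.33, Mmp14 0.0043, Timp1 0.20, Timp2 0.28 and Timp3 -0.071, so Mmp9 and Mmp12 changed sign; this weighting removes the difference in cell makeup by construction. With a mitochondrial limit of 25% they were Mmp7 -0.76, Mmp12 0.50, Mmp14 0.44, Timp1 0.44, Timp2 0.93 and Timp3 -0.80; the cause was not tested. With a pseudocount of 1 CPM they were Mmp2 1.25, Mmp7 -0.66, Mmp9 2.25, Mmp14 0.72, Timp1 0.76 and Timp2 1.21. With median-of-ratios scaling they were Mmp12 0.61, Mmp14 0.52, Timp1 0.50, Timp2 1.03 and Timp3 -1.02. With likely doublets kept Timp3 was -0.82. Values not listed stayed within their counting interval.

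The named class with the highest level stayed for all 8 members except Timp2 (macrophage-like with doublets kept), and Mmp7 and Mmp12 (with cells named one by one). The mitochondrial and UMI limits were applied to the same clusters. No paired analysis was possible because each genotype has 1 library.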
